A study of Bos taurus with 11 samples.

Results

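The *miR-148* and *miR-152* family was followed in mammary gland (MG) biopsies of Holstein and Montbéliarde cows, 2 dairy breeds. Its members are *bta-miR-148a*, *bta-miR-148b*, *bta-miR-148c*, *bta-miR-148d* and *bta-miR-152*. They were chosen by name, and 5 of the 796 miRNAs listed in the count table matched. The rule that selects them uses their names and no measured value, but the family was chosen with earlier results of these data known. Small RNA was sequenced from 5 Holstein and 6 Montbéliarde cows, all in mid-lactation and on the same forage and concentrate diet, with 1 library per cow. The biopsies were taken at the rear of the udder, and neither breed received a treatment that the other did not. The age of the cows is not given in the sources used here. A biopsy holds secretory epithelium together with stroma, vessels and blood cells, so that for a bulk library fewer cells of a type and less RNA per cell cannot be told apart.

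MiRNAs are short RNAs that guide a silencing complex to messenger RNAs, mostly by pairing of the seed near their 5′ end with sites in the 3′ untranslated region. In mammals *miR-148a*, *miR-148b* and *miR-152* share this seed, and they are therefore predicted to recognise largely the same messenger RNAs. DNMT1, the enzyme that maintains DNA methylation, is the best known of these targets. *MiR-148a* is among the most abundant miRNAs of mammary epithelium and of milk.

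The genes of all 5 members were found in the RefSeq annotation of the ARS-UCD2.0 assembly, a later one than that used for read mapping, so no coordinates are given. *MIR148D*, annotated with 61 nt, lies inside *MIR148A*, which has 68 nt, and the nearest coding genes of both are *NFE2L3* and *NPVF*. *MIR148C* (71 nt) lies inside *MIR152* (86 nt). This second pair lies within *COPZ2*, a gene of the coatomer zeta family whose proteins belong to vesicle coats. *MIR148B* (90 nt) lies within *COPZ1*, the other coatomer zeta gene. The family thus occupied 3 places in the genome, of which a pair carry overlapping miRNA genes.

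The libraries held 6087865 to 16808976 counted reads, and 754 miRNAs had at least 1 count. Marker miRNAs of several cell types, listed with earlier results of these data in view, were followed, and none of their members passed the breed test. The epithelial list (*miR-200a*, *miR-200b*, *miR-200c*, *miR-141* and *miR-429*) was present in every library, with 3.43 to 4.64% of the counted reads in Holstein cows (median 4.14%) and 1.41 to 4.44% in Montbéliarde cows (median 2.45%). Its 5 members all had a log2 fold change (log2FC) below 0 for Montbéliarde over Holstein, with a median of -0.33. The stromal list (*miR-143*, *miR-145*, *miR-199a-3p*, *miR-199a-5p* and *miR-214*) held 16.0 to 21.4% of the reads in Holstein and 21.99 to 33.9% in Montbéliarde cows, and 4 of its 5 members were above 0, with a median of 0.58. The leukocyte list had 5 of 5 members above 0 (median 0.40), the erythroid list 3 of 3 (median 0.28) and the endothelial list 0 of 2 (median -0.08). Of the muscle list, *miR-206* was not listed in the table and the other 2 members were above 0 (median 0.39). A pair of Montbéliarde libraries stood apart, as the epithelial list held 1.41% of the reads in CNLX15 and 1.58% in CNLX21 and the stromal list 33.9% and 32.9%, and values without CNLX15, or without both, are given beside the results they move most.

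The family took a large part of the miRNome in both breeds. Its 5 members held 18.9% ± 2.33 (SD, n = 5) of the counted reads in Holstein cows and 13.7% ± 5.63 (SD, n = 6) in Montbéliarde cows. The lowest share, 3.83%, was found in Montbéliarde CNLX15, and the highest, 21.4%, in Holstein CNLX9. Without CNLX15, the Montbéliarde mean was 15.6%. Nearly all of these reads belonged to *miR-148a* and *miR-148d*, with 58.1% and 41.2% of the family's counts, respectively. *MiR-148b* contributed 0.439% and *miR-152* 0.123%. Some members overlap in the genome, and how reads that match several members were counted is not stated. The share over all 5 members, and the part of *miR-148d* in it, may thus hold reads more than once. The share was therefore also calculated from *miR-148a*, *miR-148b* and *miR-152* alone. It then was 12.0% ± 1.48 (SD, n = 5) for Holstein cows, against 8.53% ± 3.57 (SD, n = 6) for Montbéliarde cows, and *miR-148a* made up 99.0% of these counts.

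**Figure D1:**
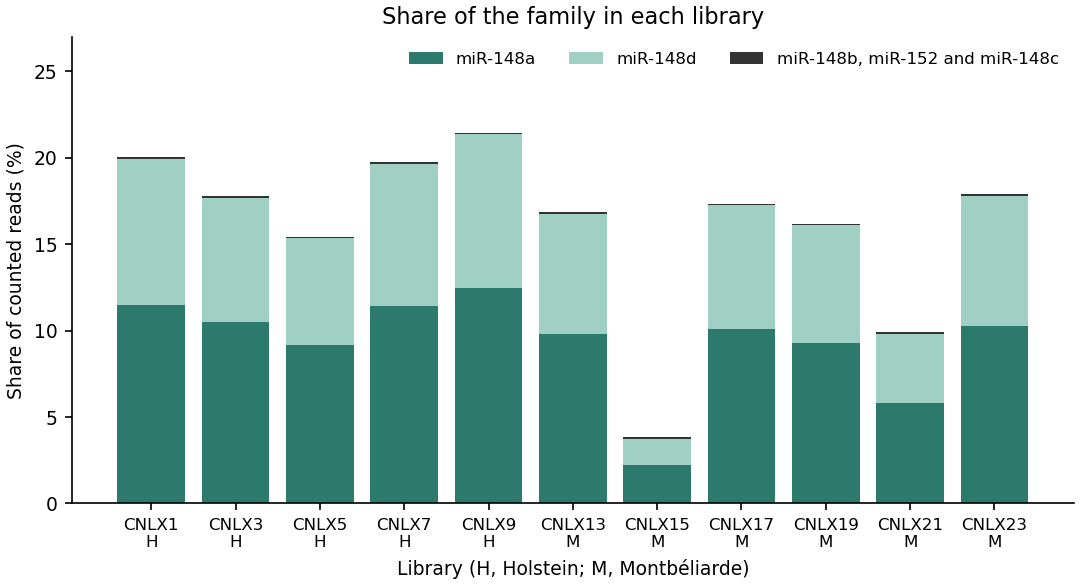
Share of the counted reads (%) taken by the members of the *miR-148* and *miR-152* family in each library, stacked by member, for Holstein (H, n = 5) and Montbéliarde (M, n = 6) libraries. The bars reach from 3.83% in CNLX15 to 21.4% in CNLX9, and *miR-148b*, *miR-152* and *miR-148c* form only a thin line at the top.

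The members' levels are given below as normalized read counts, that is, each library's raw counts over its DESeq2 size factor. They are read counts per mature miRNA, without correction for length or for how well each miRNA is captured in a library. Across the libraries, the order was *miR-148a*, *miR-148d*, *miR-148b* and *miR-152* in 11 of 11 cows. *MiR-148a* exceeded *miR-148d* by a median factor of 1.40 (1.36 to 1.48), *miR-148d* exceeded *miR-148b* by a factor of 119 (28.5 to 167), and *miR-148b* exceeded *miR-152* by a factor of 3.66 (2.88 to 4.44). The counts of *miR-152* and *miR-148c*, at the end of this order, were too close to be ordered. How reads that match both *miR-148a* and *miR-148d* were counted is not stated. The level and rank of *miR-148d* may therefore include reads shared with *miR-148a*. By mean share of the reads, *miR-148a* ranked 3 of 796, *miR-148d* 5, *miR-148b* 68, *miR-152* 104 and *miR-148c* 105.

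*MiR-148a*, the main member, had 1089415, 1128965, 929414, 1009268 and 1206799 normalized read counts in the Holstein libraries CNLX1, CNLX3, CNLX5, CNLX7 and CNLX9. In the Montbéliarde libraries CNLX13, CNLX15, CNLX17, CNLX19, CNLX21 and CNLX23 it had 992637, 253782, 1100116, 817539, 557792 and 848028. The Holstein cows thus lay close together, whereas CNLX15 and CNLX21 were well below all other cows. The mean of the Holstein cows was 1072772 ± 107217 (SD, n = 5), and that of the Montbéliarde cows 761649 ± 309188 (SD, n = 6), and 4 of the 6 Montbéliarde libraries were below the lowest Holstein library while none was above the highest. Without CNLX15, the Montbéliarde mean was 863222 ± 205227 (SD, n = 5). The coefficient of variation was 9.99% in Holstein and 40.6% in Montbéliarde cows, or 23.8% without CNLX15. In raw counts these values rest on 203087 to 1540301 reads per library, and the error of counting was well below the differences among cows.

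*MiR-148d* followed *miR-148a* from cow to cow. It had 797892, 774027, 626281, 730480 and 860734 normalized read counts in the Holstein libraries, in the same order. In the Montbéliarde libraries it had 708602, 174370, 780657, 597247, 386581 and 623149. CNLX15 was again the lowest and CNLX9 the highest, and the breeds overlapped. The mean of the Holstein cows was 757883 ± 87335 (SD, n = 5), and that of the Montbéliarde cows 545101 ± 225211 (SD, n = 6), or 619247 ± 148888 (SD, n = 5) without CNLX15.

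The levels of *miR-148b*, encoded elsewhere in the genome, were far lower and more even. The Holstein libraries had 6058, 6820, 6214, 6128 and 5426 normalized read counts. The Montbéliarde libraries had 4402, 6109, 4983, 3579, 5281 and 6254. The library CNLX15, lowest for *miR-148a*, had the second highest Montbéliarde level of *miR-148b*, and the lowest level was found in CNLX19. The means were 6129 ± 496 (SD, n = 5) and 5101 ± 1020 (SD, n = 6), and 4 of the 6 Montbéliarde libraries lay below the lowest Holstein library. Between all cows, the highest level was 1.91 times the lowest, against 4.76 times for *miR-148a* (2.16 times without CNLX15).

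For *miR-152*, the Holstein libraries had 1557, 1708, 2117, 1600 and 1221 normalized read counts. The Montbéliarde libraries had 1273, 1716, 1518, 1243, 1430 and 1707. Both the highest (CNLX5) and the lowest (CNLX9) level belonged to Holstein cows, so that the Montbéliarde values fell within the Holstein range. The means were 1640 ± 322 (SD, n = 5) and 1481 ± 205 (SD, n = 6). The values of *miR-148c* were the same as these, because its raw counts were identical to those of *miR-152* in 8 of 11 libraries and lower by 1 read in the other 3. With counts this close, *miR-148c* and *miR-152* cannot be told apart in this table, and their values are treated as a single measurement. *MIR148C* lies inside *MIR152*, but whether this overlap led to the near-identical counts was not tested.

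**Figure D2:**
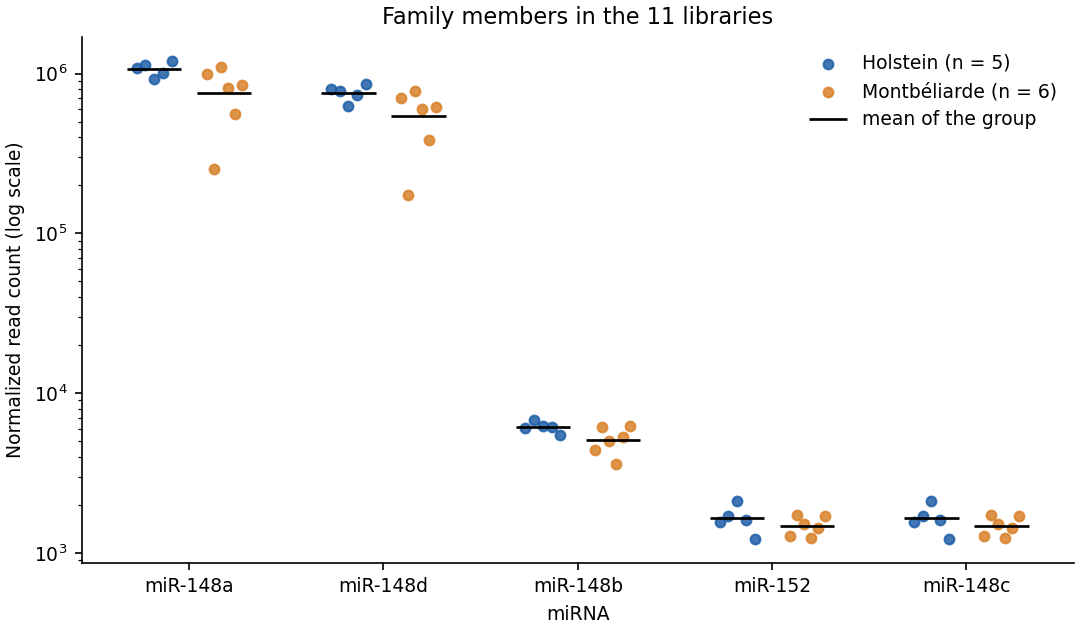
Normalized read counts (log scale) of the 5 members in each library (Holstein cows in blue, Montbéliarde cows in orange), with the mean of each group as a line. For *miR-148a* and *miR-148d* a single Montbéliarde library, CNLX15, lies far below the others, and for every member the breeds overlap.

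Whether the family differed between the breeds was tested with edgeR's quasi-likelihood test on the raw counts, over all 550 miRNAs with at least 10 counts in total. No difference was detected for any member. With the Benjamini-Hochberg limit of 0.05 on the adjusted p (P_adj), 0 of 5 members were called, against 0.364% of all tested miRNAs (2 of 550), and 0 of 5 had an unadjusted p of at most 0.05 against 78 of 550 over all. DESeq2 and limma-voom also called 0 members, and neither gave a member an unadjusted p of at most 0.05. All 5 log2FC were below 0, while 47.6% of all tested miRNAs were below 0, but the rows of *miR-148a* with *miR-148d* and of *miR-152* with *miR-148c* moved together and are not separate evidence. The median log2FC was -0.27 over the members and 0.03 over all tested miRNAs. The normalized read counts of the breeds did not overlap for 2% of the tested miRNAs (11 of 550) and for 0 members.

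The estimate was lowest for *miR-148a*, with a log2FC of -0.50 ± 0.27 (SE) and P_adj = 0.405 (edgeR), so that the fitted Montbéliarde level was 70.7% of that of Holstein cows. Without CNLX15, it was -0.24 (P_adj = 0.563). *MiR-148d* had a log2FC of -0.48 ± 0.28 (SE) and P_adj = 0.426, or -0.22 (P_adj = 0.619) without CNLX15. Both estimates were less than 2 times their standard errors, which were derived from the test's F statistic and are not evidence separate from the p-values. *MiR-148b* had a log2FC of -0.27 ± 0.15 (SE) and P_adj = 0.405. *MiR-152* and *miR-148c* each had a log2FC of -0.16 ± 0.17 (SE) and P_adj = 0.713. With the summed epithelial markers added to the model, the log2FC of *miR-148a* was 0.08 (P_adj = 0.982) and that of *miR-148d* 0.12 (P_adj = 0.970), and the direction of these members therefore depended on this choice.

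**Figure D3:**
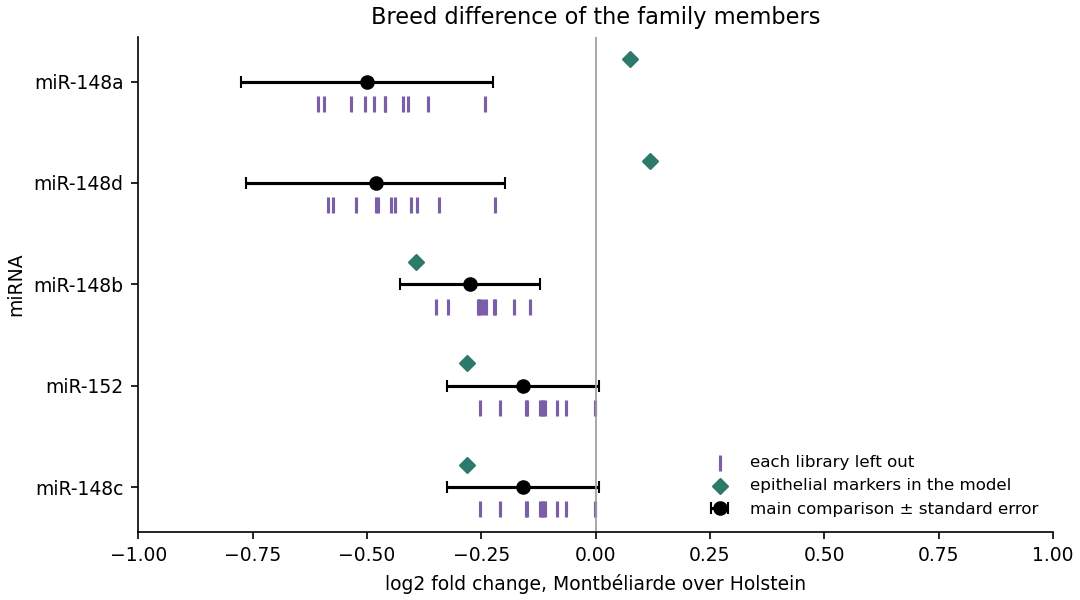
Log2 fold change of each member, Montbéliarde over Holstein, with its standard error (black), with each of the 11 libraries left out in turn (purple ticks) and with the summed epithelial markers in the model (green diamonds). The black points lie between -0.50 and -0.16, and the diamonds of *miR-148a* and *miR-148d* lie on the other side of 0.

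Ratios of raw counts within a library do not depend on normalization. *MiR-148d* amounted to 67.4 to 73.5% of *miR-148a* in every library. The coefficient of variation of this ratio was 2.98% across cows. The counts of *miR-148d* and *miR-148a* were thus in a narrow range of proportions, but they were not identical in any library, unlike most of those of *miR-148c* and *miR-152*. The mean log2 ratio of *miR-148d* to *miR-148a* differed by 0.01 between the breeds (exact permutation test, two-sided, p = 0.641, adjusted over 4 ratios 0.854). How reads that match both miRNAs were counted is not stated in the sources used here.

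In contrast, *miR-148b* and *miR-152* varied against *miR-148a*. *MiR-148b* was 0.577% ± 0.0817 (SD, n = 5) of *miR-148a* in Holstein cows, against 0.904% ± 0.765 (SD, n = 6) in Montbéliarde cows. The values were 0.556, 0.604, 0.669, 0.607 and 0.450% in the Holstein libraries and 0.443, 2.41, 0.453, 0.438, 0.947 and 0.738% in the Montbéliarde libraries. CNLX15 and CNLX21 had the highest ratios and the other libraries overlapped between the breeds. The log2 difference, Montbéliarde minus Holstein, was 0.35 and did not pass the test (p = 0.545 in a two-sided exact permutation test, adjusted 0.854). Without CNLX15, it was 0.000406 (exact permutation test, p = 1), so that the difference rested on this library. *MiR-152* was 0.101 to 0.228% of *miR-148a* in Holstein and 0.128 to 0.676% in Montbéliarde cows, with CNLX15 again the highest. Its log2 difference was 0.50 (exact permutation test, two-sided, p = 0.307, adjusted 0.854), and 0.163 without CNLX15 (exact permutation test, p = 0.563). The smallest p that 5 against 6 libraries allow in this test is 0.004329.

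**Figure D4:**
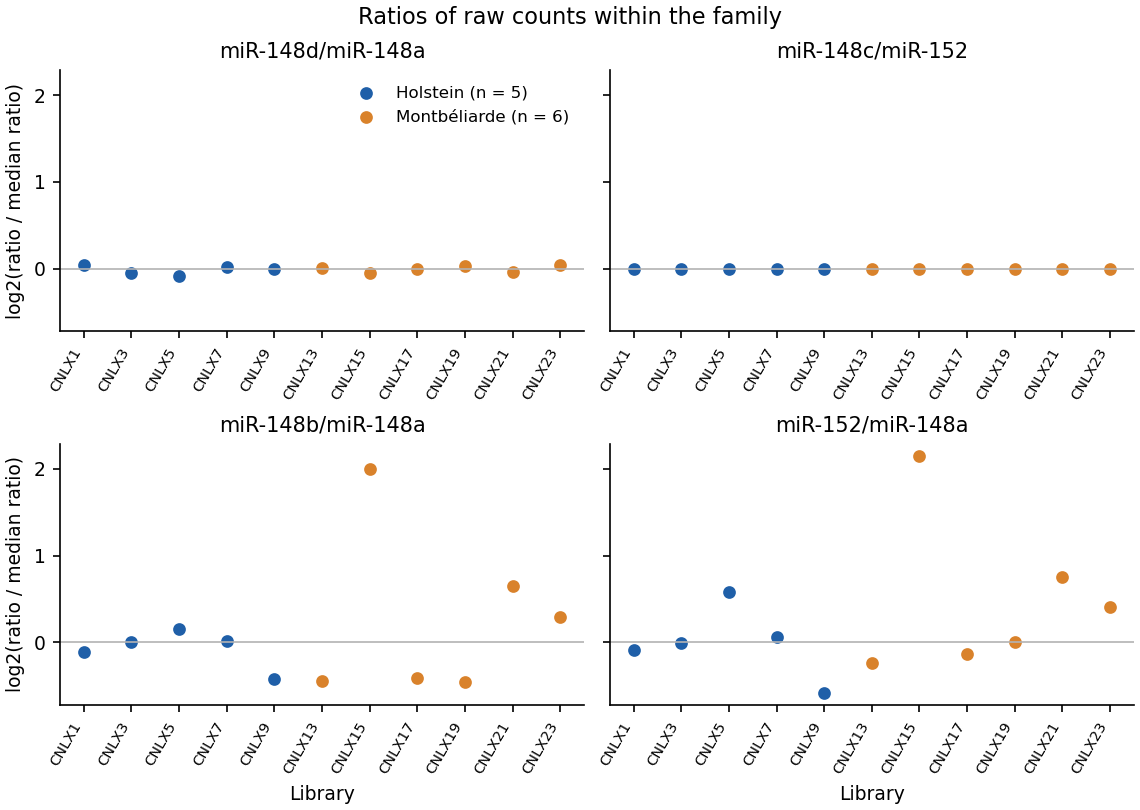
Ratios of raw counts between members in each library, as log2 of the ratio over its median across the 11 libraries. The ratios of *miR-148d* to *miR-148a* and of *miR-148c* to *miR-152* lie close to 0 in every library, and those of *miR-148b* and *miR-152* to *miR-148a* are highest in CNLX15.

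Across the cows, the levels of the members were alike in pairs. On log2 TMM-scaled counts, r over the 11 libraries was 0.998 between *miR-148a* and *miR-148d* and 0.713 between *miR-148b* and *miR-152*. Between *miR-148a* and *miR-148b* it was -0.06, and between *miR-148a* and *miR-152* -0.18. These values are descriptions of the same 11 libraries, which share their depth and scaling factors.

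*MiR-148a* was higher in the libraries with more epithelial marker miRNAs. Its r with the summed epithelial list was 0.791 over the 11 libraries (permutation test, p = 0.000380, adjusted over 6 relations 0.00228), and Spearman's rho was 0.773 (permutation p = 0.00746, adjusted 0.0448). Without CNLX15 and CNLX21, the libraries farthest from the median of the markers, r was 0.643 (exact permutation test, n = 9, p = 0.0631). The call was thus lost without both libraries, though fewer libraries also give the test less power. It was kept without CNLX15 alone (r = 0.830, permutation test, p = 0.00366) and without CNLX21 alone (r = 0.793, permutation test, p = 0.00368). Within the Montbéliarde cows, r was 0.727 (exact permutation test, n = 6, p = 0.104), and with the breed means removed it was 0.705 (permutation p = 0.0976). Neither value passed the limit of 0.05. Correlations were given for at least 6 libraries, and within the 5 Holstein cows the highest *miR-148a* was found in CNLX9, which had the second lowest epithelial sum of that breed. Most of the epithelial sum, 75.8% on average, came from *miR-141*, whose r with *miR-148a* was 0.699, whereas *miR-200c*, with 13.5% of the sum, had an r of 0.965.

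The relation with the summed stromal list ran in the other direction. R was -0.752 (permutation test, p = 0.00248, adjusted 0.00744) and Spearman's rho -0.682 (permutation p = 0.0254, adjusted 0.0762). This relation rested more on CNLX15 and CNLX21, with an r of -0.278 without them (exact permutation test, n = 9, p = 0.472). Within the Montbéliarde cows r was -0.719 (exact permutation test, n = 6, p = 0.0889), and with the breed means removed -0.645 (permutation p = 0.0842). As *miR-143* made up 99.4% of the stromal sum, this relation was mostly one between *miR-148a* and *miR-143*, both among the most abundant miRNAs. The less abundant members of the same list had an r with *miR-148a* of -0.889 (*miR-199a-3p*), -0.900 (*miR-199a-5p*), -0.958 (*miR-214*) and -0.316 (*miR-145*). What part the makeup of the biopsies had in the level of *miR-148a* was not tested.

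For the less abundant members, no relation passed the test over the 11 libraries. The r of *miR-148b* was 0.231 with the epithelial list (permutation test, p = 0.498, adjusted 0.746) and -0.307 with the stromal list (p = 0.359 by permutation, adjusted 0.717). That of *miR-152* was 0.02 (permutation test, p = 0.956, adjusted 0.956) and -0.121 (permutation test, p = 0.723, adjusted 0.868). The single epithelial markers did not go the same way. *MiR-141*, most of the sum, had an r of 0.316 with *miR-148b* and 0.097 with *miR-152*. For *miR-200a*, *miR-200b*, *miR-200c* and *miR-429*, r with *miR-148b* was -0.388, -0.364, 0.043 and -0.198. With *miR-152* it was -0.488, -0.494, -0.127 and -0.365 in the same order. Without CNLX15 and CNLX21, r of *miR-148b* was 0.528 with the epithelial list (exact permutation test, n = 9, p = 0.144) and -0.640 with the stromal list (exact permutation test, n = 9, p = 0.0657). The stromal value of *miR-148b* was thus farther from 0 than that of *miR-148a* without the same libraries (-0.278), and this difference was not tested. For *miR-152*, r was then 0.138 (exact permutation test, n = 9, p = 0.721) and -0.308 (exact permutation test, n = 9, p = 0.420). In CNLX15 and CNLX21, where *miR-148a* was lowest, both members had levels within the range of the other cows.

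**Figure D5:**
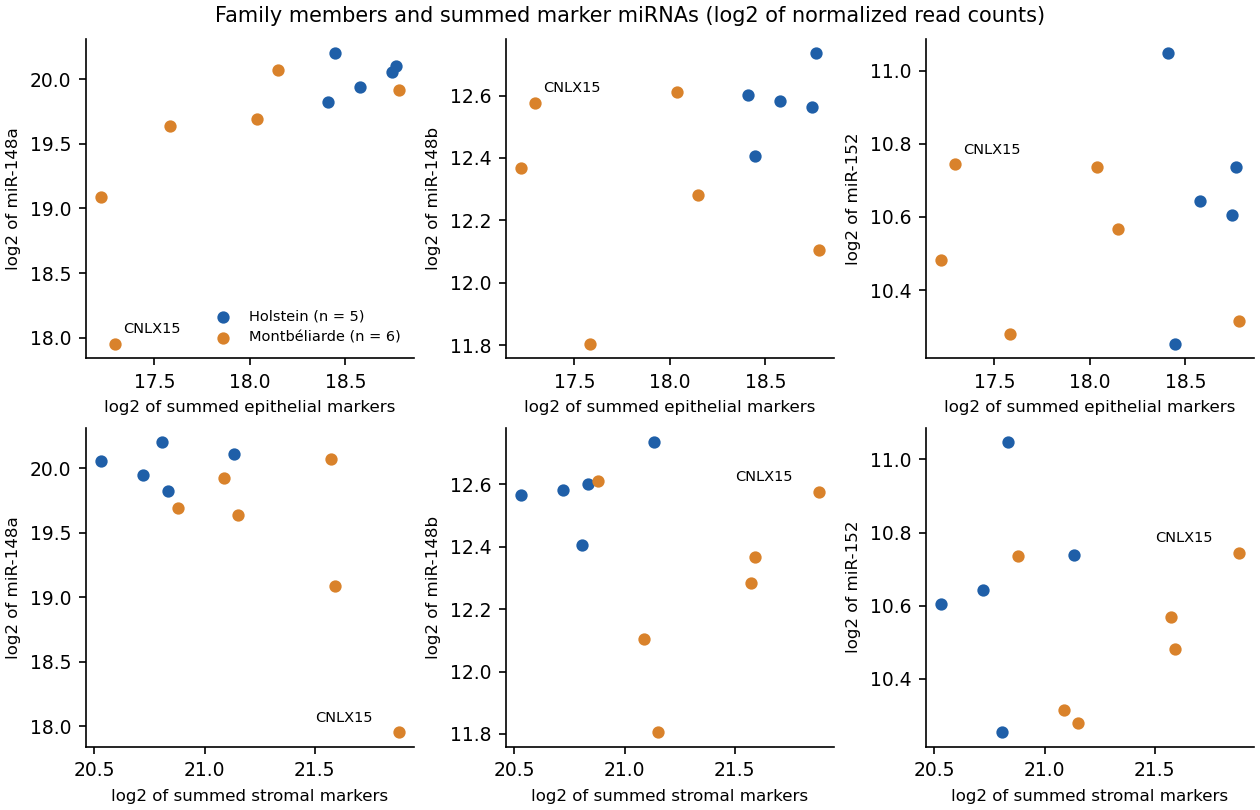
Log2 of the normalized read counts of *miR-148a*, *miR-148b* and *miR-152* (vertical axes) against log2 of the summed epithelial markers (top row) and stromal markers (bottom row), with 1 point per library. *MiR-148a* rises with the epithelial sum (r = 0.791 on TMM-scaled values, 0.643 without CNLX15 and CNLX21), and CNLX15 is its lowest point.

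The miRNAs outside the family with the most similar pattern were looked for among 209 miRNAs with a mean raw count of at least 100, by r over the 11 libraries. For *miR-148a* these were *miR-6522* (0.975), *miR-200c* (0.965) and *miR-374c* (0.947). Without CNLX15, these values were 0.852, 0.915 and 0.661, so that *miR-200c*, a member of the *miR-200* family that maintains the epithelial state, was least affected by this library. For *miR-148b*, the highest values were those of *miR-145* (0.797), *miR-374b* (0.758) and *miR-664b* (0.748). For *miR-152*, they were those of *miR-145* (0.779), *miR-195* (0.741) and *miR-664b* (0.678). All of these miRNAs were picked as the highest among the 209, so that their r is a description and was not tested. *MiR-145*, best known from smooth muscle, stood first for both *miR-148b* and *miR-152*. These members were themselves alike (r = 0.713), so that the shared first place is not separate evidence. *MiR-145* is also a stromal marker, but with 0.161% of the stromal sum it weighed little in the relations above. The other stromal markers did not share its pattern. Their r was between -0.309 (*miR-143*) and 0.202 (*miR-214*) with *miR-148b*, and between -0.123 (*miR-143*) and 0.247 (*miR-214*) with *miR-152*.

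Other miRNAs known to be abundant in milk were considered as a list of 19. Of these, 9 had a log2FC above 0 and 10 below 0, with a median of -0.01. Only *miR-186* passed the test, 1 of 19 against 0.364% of all tested miRNAs, with a lower level in Montbéliarde cows (log2FC -0.77 ± 0.15 SE, edgeR P_adj = 0.0370). The list was chosen with earlier results of these data known, and the authors also report *miR-186* as differing between the breeds. The share called is therefore not evidence about milk miRNAs as a group. The call of *miR-186* was kept with the DESeq2 Wald test (P_adj = 0.000391) and limma-voom (P_adj = 0.0282). The other count filters, known miRNAs only and the library size covariate also kept it. It was lost with RLE factors, upper quartile factors, library totals alone, shared reads counted once or the epithelial covariate, and in 8 of the 11 fits that left out a library. The list as a whole therefore had a median close to that of all tested miRNAs, and its difference from the median of the family members was not tested.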

How the data were processed

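The authors trimmed adaptors, kept reads of 15 to 40 nt and quantified mature miRNAs with ncPRO-seq and miRDeep2. They deposited raw read counts per miRNA and library, which were used here. The 11 deposited columns of scaled counts and those of the authors' comparison (means, log2 fold change, p-values) were not used. Size factors were recomputed with DESeq2 1.42.0.

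Breeds, taken from the labels, were compared by edgeR 4.0.16 under R 4.3.3 (TMM, robust quasi-likelihood fit, Benjamini-Hochberg) over miRNAs with at least 10 counts in total. The SE of an edgeR estimate is its absolute log2FC over the square root of the F statistic. DESeq2, limma 3.58.1, other scalings, filters and covariates, and each library left out were alternatives. The fits of edgeR, DESeq2 and limma-voom were run on simulated counts. Recovery of set changes was checked for each, and false calls without a change for edgeR alone. No outlying library was built into these counts. Ratios were compared with exact permutation tests in scipy 1.17.1. Correlations used log2 of TMM-scaled values, with 1 added for single miRNAs but not for marker sums. Over the 11 libraries they were tested with 100000 random permutations in numpy 2.4.6. For 9 or 6 libraries all permutations were taken. With breed means removed, all permutations within the breeds were taken. Likeness used miRNAs with a mean count of at least 100, and 3 per member are named.

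The members, marker and milk lists were chosen with earlier results of these data known. The named miRNAs are the members, these lists and the most alike. Depth was 7431936 to 16808976 counted reads per library in Holstein and 6087865 to 11395785 in Montbéliarde cows. The authors report a lower mean output rate of cleaned reads for Montbéliarde libraries, with more too-short and adapter reads. What part this output rate had in the breed comparison was not tested. P-values rest on 1 library per cow. Breed and library tag order cannot be told apart.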

Additional observations from a re-analysis of the deposited data

Results flagged for a closer look

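Among 22 groups of values checked for a sample far from the others, 2 held one, both in the Montbéliarde library CNLX15, where chance flags about 1 in 20 groups. The raw count of *miR-148b* was 2.41% of that of *miR-148a* in CNLX15, while the nearest Montbéliarde library had 0.947% and the lowest 0.438%. The gap was 0.742 of the range, above Dixon's 95% critical value for 6 samples. *MiR-152* was 0.676% of *miR-148a* in CNLX15, with 0.256% in the nearest and 0.128% in the lowest Montbéliarde library (gap 0.766 of the range). Both ratios share the low *miR-148a* of this library and are not separate observations.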

How the results depend on the processing

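In the breed test, 0 members were called under any of 22 alternatives. The number of miRNAs called over all was 2, and 21 with DESeq2, 1 with library totals alone, and 0 with RLE factors, upper quartile factors, shared reads counted once or the epithelial covariate, where 82, 78, 87 and 37 miRNAs had an unadjusted edgeR p of at most 0.05. With each library left out it ranged from 0 to 6. It was 0 without CNLX1, CNLX3, CNLX5, CNLX7, CNLX15, CNLX19 or CNLX21, 1 without CNLX9, and 4, 5 and 6 without CNLX13, CNLX17 and CNLX23. The median log2FC of all miRNAs shifted most, to 0.10, without CNLX15. With the epithelial covariate, the log2FC was 0.0752 for *miR-148a* and 0.12 for *miR-148d*. With library size as a covariate it was 0.06 for *miR-152* (0.0615) and *miR-148c* (0.0614), and 2 members had an unadjusted p of at most 0.05, of which *miR-148a* had a log2FC of -0.71 and P_adj = 0.242. With each library left out, the log2FC ranged from -0.61 to -0.24 for *miR-148a*, from -0.58 to -0.22 for *miR-148d*, from -0.35 to -0.14 for *miR-148b*, and from -0.25 to -0.0016 for *miR-152* and *miR-148c*. The log2 ratio differences, the first 2 of them lowest without CNLX15, ranged from 0.000406 to 0.492 (*miR-148b* to *miR-148a*), 0.163 to 0.644 (*miR-152* to *miR-148a*), -0.00457 to 0.0255 (*miR-148d* to *miR-148a*) and -8.45e-05 to 0.000201 (*miR-148c* to *miR-152*). The family share ranged from 18.2 to 19.7% in Holstein and 12.8 to 15.6% in Montbéliarde cows with each library left out. With shared reads counted once, it was 12.0% in Holstein and 8.53% in Montbéliarde cows.

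Among the marker relations, r of *miR-148a* no longer passed the limit without CNLX15 and CNLX21, within Montbéliarde and with breed means removed (0.643, 0.727 and 0.705 for epithelial, -0.278, -0.719 and -0.645 for stromal markers). Within Montbéliarde and with breed means removed, r of *miR-148b* was -0.376 and -0.301 (epithelial) and 0.170 and 0.204 (stromal), and r of *miR-152* was -0.547 and -0.288 (epithelial) and 0.175 and 0.158 (stromal). Spearman's rho of *miR-152* with epithelial markers was -0.173. With each library left out, an alternative chosen after seeing the data, r ranged from 0.784 to 0.835 and -0.842 to -0.656 for *miR-148a*, 0.0434 to 0.437 and -0.466 to -0.237 for *miR-148b*, and -0.108 to 0.177 and -0.291 to 0.0318 for *miR-152* (epithelial and stromal). The causes of these changes were not tested. Each member had at least 764 raw reads in every library.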
